A study of Mus musculus with 10 samples.

Results

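Among the DamID-seq peaks of ZFP266 in mouse embryonic fibroblasts (MEFs) are 713 that hold B1 SINEs, but only diverged ones. A peak was taken when it shared at least 1 base with a stretch of GRCm38 that blastn aligned to the B1 consensus over 80 bp or more at 70% identity or more, and when every such copy in it was under 80% identical. These peaks make up 4.72% of the 15119 peaks in the list (Wilson 95% interval 4.39 to 5.07%) and 14.3% of the 4974 peaks with any B1 SINE. The other 4261 peaks with a B1 SINE hold at least 1 copy of 80% or more, and 10145 hold none by these limits. Below, a copy under 80% is called old and one of 80% or more closer. Within the peak list, the rule uses the reference sequence alone and no signal value or q of a peak.

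The peaks compare 5 samples of Dam-ZFP266 with 5 samples of Dam only. All were MEFs of the 129 strain with no further genotype in the labels, nucleofected with PGK-mO-Dam-Zfp266 or PGK-mO-Dam and collected 48 h later. In both plasmids the PGK promoter drives mOrange as a first reading frame, and the Dam protein is made at a low level by translation reinitiation after it. The labels state that mOrange-positive cells were sorted, whereas the methods name GFP. ZFP266 was delivered as a fusion from a plasmid, so the data show where the fusion protein sat. The labels do not say whether samples with the same number came from the same embryos. Both groups enter 1 pooled list of peaks, so the depth of each sample is unknown, there is no value per sample, and no replicate error can be given. Intervals are Wilson 95% intervals of shares, order-statistic 95% intervals of medians or, for ratios of shares, normal 95% intervals on the log scale. They cover counting error only and treat copies as independent, although many copies sit close to others.

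In DamID-seq, Dam methylates the adenine of GATC close to where the fused protein sits, and the Dam only samples give the background of accessible chromatin. ZFP266 is a KRAB zinc finger protein, a class in which the fingers read DNA and the KRAB domain recruits the corepressor TRIM28. B1 SINEs are short retrotransposons of rodents that descend from 7SL RNA, the RNA of the signal recognition particle. After insertion they gather mutations, and their CpG sites are lost fastest because methylated cytosine turns into thymine, so copies that are far from the consensus tend to be old.

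The consensus and 6 genomic copies are shown because the result turns on which of their bases remain. The consensus has N at base 89, and its capitals mark the motifs that the study drew on it, the first from base 31 to 59 and the second from base 62 on. In the copies, capitals mark bases that differ from the consensus or are added to it, and deleted bases are simply missing. The 5 old copies, not all that could be shown, are from members with high signal values that hold a single copy spanning at least 100 bases of the consensus and lie outside exons. They are named by the gene at the middle of the peak or by the nearest transcript start. Each is printed 5′ to 3′ along its own strand of GRCm38.
Consensus: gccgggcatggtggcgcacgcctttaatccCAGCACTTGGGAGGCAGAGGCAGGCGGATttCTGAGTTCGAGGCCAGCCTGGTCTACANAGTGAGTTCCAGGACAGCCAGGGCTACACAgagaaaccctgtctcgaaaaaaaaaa
Trim24, chr6:37872870-37873021, minus strand: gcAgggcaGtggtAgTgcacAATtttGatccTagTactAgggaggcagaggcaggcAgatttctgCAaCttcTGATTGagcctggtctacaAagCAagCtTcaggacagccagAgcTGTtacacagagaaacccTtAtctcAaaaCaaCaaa
Csrp1, chr1:135683950-135684059, plus strand: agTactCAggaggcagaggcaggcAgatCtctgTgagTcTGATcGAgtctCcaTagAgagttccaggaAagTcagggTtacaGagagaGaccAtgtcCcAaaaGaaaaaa
Rpl17-ps10, chr7:72547221-72547359, minus strand: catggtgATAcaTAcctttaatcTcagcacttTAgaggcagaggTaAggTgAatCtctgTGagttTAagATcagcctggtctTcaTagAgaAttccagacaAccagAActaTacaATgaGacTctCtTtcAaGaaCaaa
Sugct, chr13:17492700-17492820, plus strand: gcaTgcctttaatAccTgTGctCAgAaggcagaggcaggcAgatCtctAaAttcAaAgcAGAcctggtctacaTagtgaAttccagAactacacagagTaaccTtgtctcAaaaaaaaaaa
Ttc39a, chr4:109416847-109416964, plus strand: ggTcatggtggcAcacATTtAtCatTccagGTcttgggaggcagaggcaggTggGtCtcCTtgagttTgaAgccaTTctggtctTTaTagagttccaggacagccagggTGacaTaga
Closest copy in a peak, chr1:151678558-151678702, plus strand: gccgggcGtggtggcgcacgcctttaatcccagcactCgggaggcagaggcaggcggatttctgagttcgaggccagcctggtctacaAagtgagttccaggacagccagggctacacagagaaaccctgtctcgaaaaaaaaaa
The old copies carry between 23 and 36 capitals, against 3 in the copy printed as closest, which counts the base at N. That copy is 97.9% identical to the consensus. It is not the highest by identity, since closer copies in peaks reach 98.3%. The run AGAGGCAGG, bases 46 to 54 of the consensus, stands unchanged in 4 of the 5 old copies printed and in the one printed as closest. The copy named by Rpl17-ps10 has it changed. The printed copies are not typical in this, since the run is intact in 35.4% of the member copies that span it.

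The 713 peaks hold 775 old copies. A single copy lies in 655 peaks, 2 copies in 54 and 3 copies in 4. Their identity to the consensus ranges from 70.1 to 79.9% with a median of 76.2%, and their alignment from 80 to 159 columns with a median of 125. Only 124 of the copies (16.0%) align from base 5 or earlier to base 130 or later, whereas 55.5% of the closer copies in peaks do. By these measures the copies in the members resemble old copies outside peaks, whose median identity is 76.1%, whose median alignment is 124 columns and of which 18.2% are full. Of the 6 CpG sites of the consensus, the member copies keep CG at 7.38% of aligned sites (6.52 to 8.35%), old copies outside peaks at 6.57% (6.49 to 6.66%) and closer copies in peaks at 40.4% (39.8 to 40.9%). At 60.9% of these sites the member copies read TG or CA, the products of cytosine deamination on either strand.

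GRCm38 holds 79512 old and 202011 closer copies by the same limits. A base in a peak was found for 1531 old copies (1.93%, 1.83 to 2.02%) and for 5627 closer copies (2.79%, 2.71 to 2.86%). About as many of these old copies, 756, lie in 659 peaks that also hold a closer copy. In narrow classes of identity the share ran from 1.68 to 2.08% in the 4 classes of old copies and from 2.05 to 2.36% in the 4 classes from 80 to 90%, with overlapping intervals between each pair of neighbouring classes. On either side of the 80% limit it was 1.89% and 2.05%. Over the 4 classes from 80 to 90% it was 2.21% (2.12 to 2.31%). This interval lies above that of the old copies (1.83 to 2.02%). From 90 to 100% the share was 3.27% (3.17 to 3.38%). Many copies sit close to others, so the shares were also taken over copies with no other B1 SINE within 5 kb. There 170 of 17085 old copies (0.995%, 0.857 to 1.16%) met a peak, against 1.15% from 80 to 90% and 1.89% from 90 to 100%.

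The members just inside the 80% limit have closest copies of 79.9% at Bcl2l11 (signal value 0.92), Tsga13 (1.03) and Mir710 (0.64). The peaks just outside it have closest copies of exactly 80% at Pik3cb (1.11) and Olfr221 (1.26). These genes are the nearest transcript starts, and all 5 peaks are intergenic. The nearest closer copy lies 61 bp from the edge of the Tsga13 member, 1616 bp from the Mir710 member and 4605 bp from the Bcl2l11 member.

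Old copies were not more frequent in peaks than beside them. The windows of equal length to the left and right of each peak that meet no other peak, 25956 in all, hold only old copies in 6.62% of cases (6.32 to 6.92%), against the 4.72% of peaks. Any old copy is present in 10.9% of the windows (10.5 to 11.3%) and in 9.07% of peaks (8.63 to 9.54%). For closer copies the order is the other way, with 22.4% of windows and 28.2% of peaks (27.5 to 28.9%).

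Within the old copies, the bases kept were unevenly spread. The member copies keep 78.1% of the aligned bases of the first motif and old copies outside peaks 76.3% (76.3 to 76.4%). In the second motif the order is reversed, with 77.6% (77.1 to 77.9%) in the members and 78.2% (78.2 to 78.3%) outside. The first 30 bases are kept at 81.3% in members and 81.5% outside. The bases with the largest excess lie in the 3′ part of the first motif. Of the 134 bases other than N and the A tail, the members keep more at 61, and at 11 they exceed old copies outside peaks by over 3 percentage points. At 4 bases (14, 26, 34 and 78) they fall short by over 3 points, and base 34 is in the first motif. Of these 11, 8 lie between bases 44 and 54, and the others are bases 43, 55 and 62. The largest excess is at base 51, which is kept by 84.9% of member copies and 79.3% of old copies outside. Base 46 is an exception within the stretch, at 84.0% against 86.8%. Closer copies in peaks also keep more than closer copies outside at all 11 bases from 44 to 54. They keep more at most other bases as well, with a median identity of 91.5% against 90.5% outside, so this count is not particular to the stretch.

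**Figure D1:**
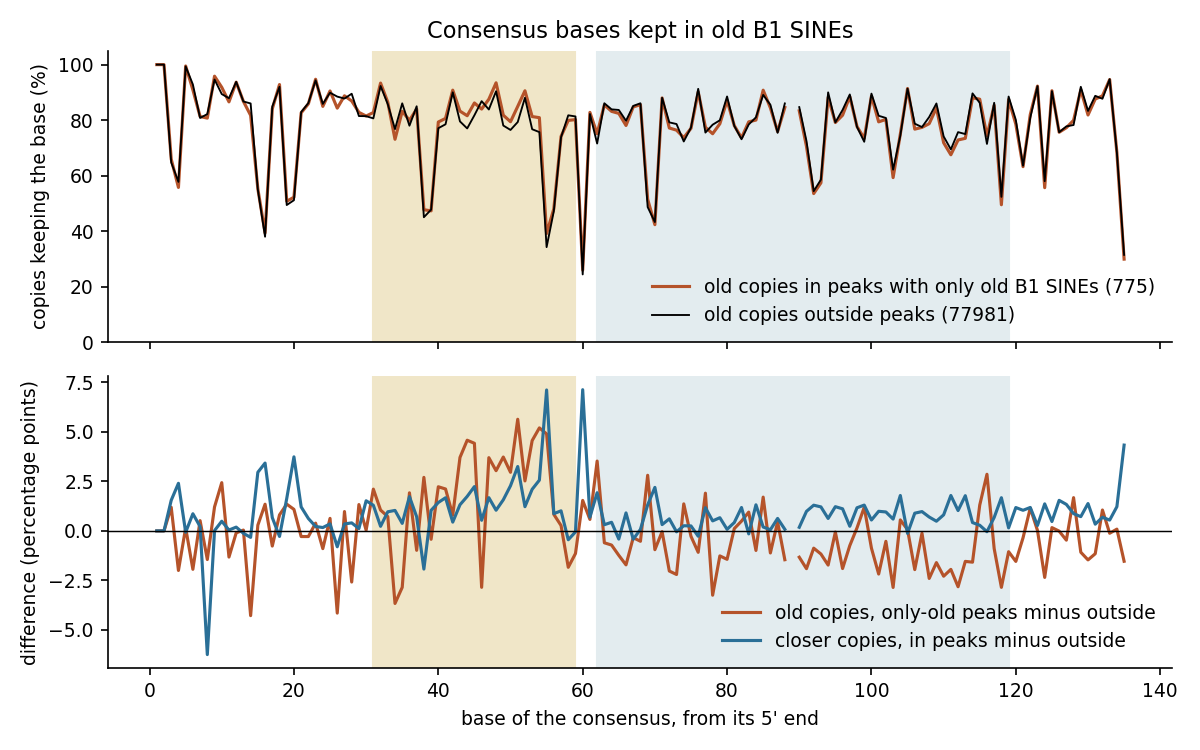
Upper panel: share of aligned old copies (%) that keep each consensus base, by position from the 5′ end, in the 775 copies of the members and in the 77981 old copies outside peaks; lower panel: differences in percentage points, for these copies and for closer copies in against outside peaks. The shaded spans are the first motif (bases 31 to 59) and the second (from base 62), and the members' line stands highest above 0 in the 3′ part of the first motif, with 84.9% against 79.3% at base 51; bases next to the ends of local alignments are kept more often by construction.

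The run AGAGGCAGG was then followed as a whole. It was picked after the values by base had been seen, and its shares and ratios, with their intervals, are descriptions. All 9 bases are intact in 270 of the 762 member copies that span them (35.4%, 32.1 to 38.9%). In old copies outside peaks the share is 23.9% (23.6 to 24.2%), and in those of them within 100 kb of a peak it is 24.8% (24.4 to 25.2%). The old copies that share a peak with a closer copy lie between, at 31.5% (28.2 to 35.0%). In closer copies the run is intact in 73.8% inside peaks (72.6 to 74.9%) and in 64.8% outside (64.6 to 65.0%).

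Seen from the genome, an old copy with the run intact met a peak in 2.69% of cases (498 of 18544, 2.46 to 2.93%) and an old copy with it changed in 1.69% (988 of 58565, 1.59 to 1.79%), a ratio of 1.59 (95% interval 1.43 to 1.77). The gap was present at the lowest identity, with 2.81% against 1.61% from 70 to 75%, and at 75 to 80%, with 2.64% against 1.74%. An old copy with the run intact met a peak about as often as a copy of 85 to 90% with the run intact, which did so in 2.68% of cases. With the run changed, copies of 85 to 90% met a peak in 1.75% of cases. From 90 to 95% the shares were higher, at 3.48% with the run intact and 2.67% with it changed. Over all closer copies they were 3.17% (3.08 to 3.27%) and 2.10%. Within transcripts the ratio for old copies was 1.61, outside transcripts it was 1.58, and among copies within 100 kb of a peak it was 1.51. Among old copies with no other B1 SINE within 5 kb it was 1.42 (1.02 to 1.99) on 48 and 120 copies in peaks, and the intervals of the shares overlap, at 0.995 to 1.74% with the run intact and 0.774 to 1.11% with it changed. In the part of these copies from 75 to 80% the ratio was 1.08.

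**Figure D2:**
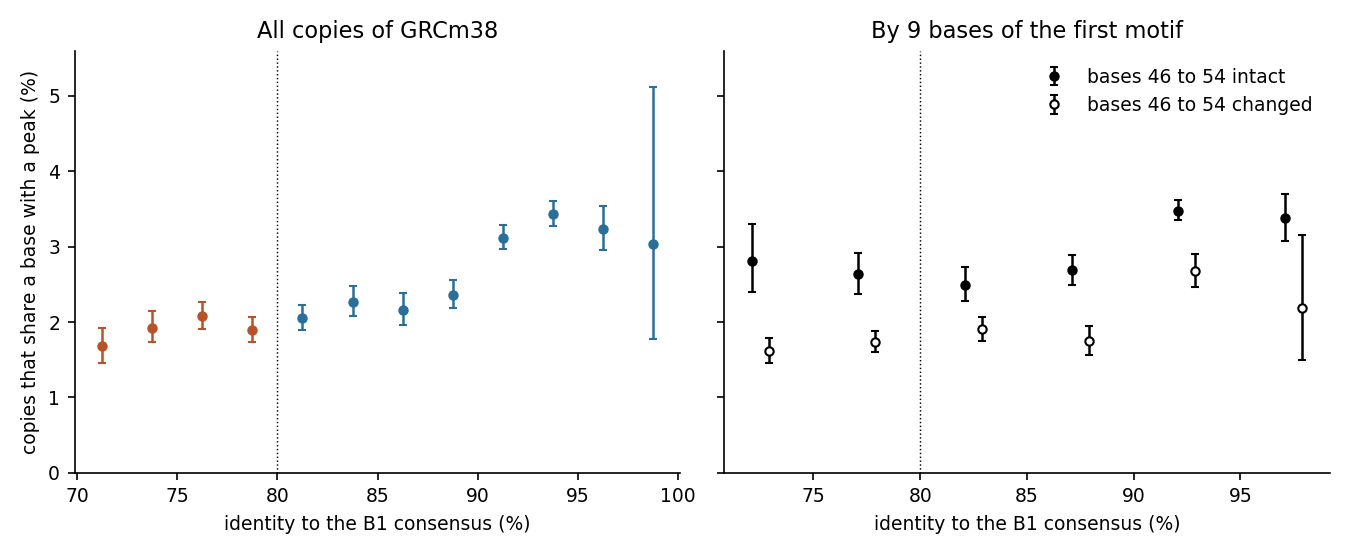
Share of B1 SINE copies in GRCm38 (%) that share a base with a peak, by identity to the consensus, with Wilson 95% intervals; the dotted line is the 80% limit, and the first panel shows old copies in brown and closer ones in blue. In the second panel the copies with bases 46 to 54 intact lie above those with a changed base on both sides of the limit, at 2.81% against 1.61% in the lowest class.

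The same count was made for each of the 118 stretches of 9 bases that cover neither the N nor the A tail. For old copies the median ratio of the shares in a peak, intact over changed, was 1.06, and the lowest 0.879. Among the 79 stretches that were intact in 100 or more old copies in peaks, bases 47 to 55 had the highest ratio, 1.68 (3.04% against 1.80%), and bases 46 to 54 came next. Higher ratios, up to 2.95 for bases 54 to 62, stood on 12 to 27 copies in peaks, and all of these stretches hold the CpG at bases 55 and 56. For closer copies the median ratio was 1.19, bases 44 to 52 had the highest ratio, 1.54, and bases 46 to 54 ranked 4 of 118.

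**Figure D3:**
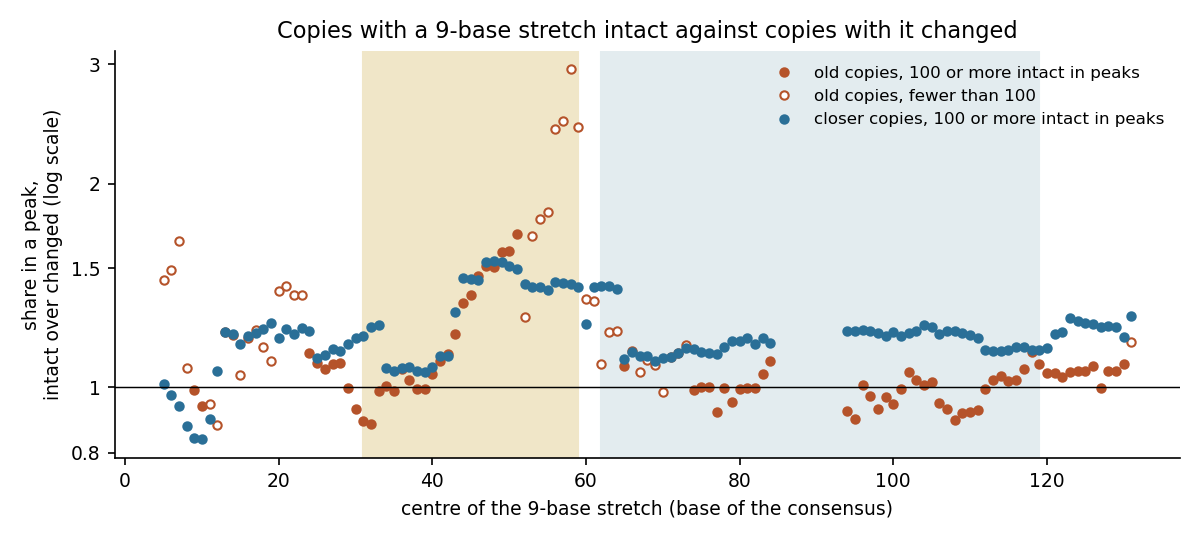
Ratio (log scale) of the share of copies in a peak with a 9-base stretch intact over the share with it changed, by the centre of the stretch on the consensus, for old copies (brown) and closer copies (blue); open points stand on fewer than 100 copies in peaks, and shading marks the first and second motif. In both classes the ratio is high in the 3′ part of the first motif, to 1.68 on 100 or more old copies and 1.54 in closer copies, while in old copies it lies between 0.896 and 1.15 in stretches wholly inside the second motif.

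The signal value of the members, the measure of Dam-ZFP266 over Dam only in the list (its scale is not stated), had a median of 0.897 (0.873 to 0.921) and ran from 0.333 to 2.13. Peaks with a closer copy had a median of 0.891 (0.882 to 0.899) and peaks without a B1 SINE 0.901 (0.895 to 0.906), and the 3 intervals overlap. The median −log10 q was 1.35 in members (1.31 to 1.39), 1.38 with a closer copy and 1.30 without a B1 SINE. A q under 0.05 together with a signal value above 1 was met by 179 members (25.1%, 22.1 to 28.4%), close to the background of 26.4% over all peaks. It was met by 27.9% of peaks with a closer copy and 25.8% of peaks without a B1 SINE. A q under 0.001 was reached by 19 members (2.66%), 142 peaks with a closer copy (3.33%) and 157 without a B1 SINE (1.55%).

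Members were longer than peaks without a B1 SINE. Their median length was 1844 bp (1756 to 1950 bp), against 1676 bp without a B1 SINE and 2053 bp with a closer copy. A longer peak has more room to meet a copy, so the rule by itself favours this order in length and in number of fragments. In each case a peak is a run of DpnII fragments, the stretches between GATC sites. A single fragment made up 356 members (49.9%), 1961 of the 4261 peaks with a closer copy and 60.1% of those without a B1 SINE. Signal values were lower in longer peaks in every class. In members the median went from 0.964 under 1000 bp to 0.946, 0.840 and 0.737 at 3000 bp or more, and at that length it was 0.729 with a closer copy and 0.724 without a B1 SINE.

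**Figure D4:**
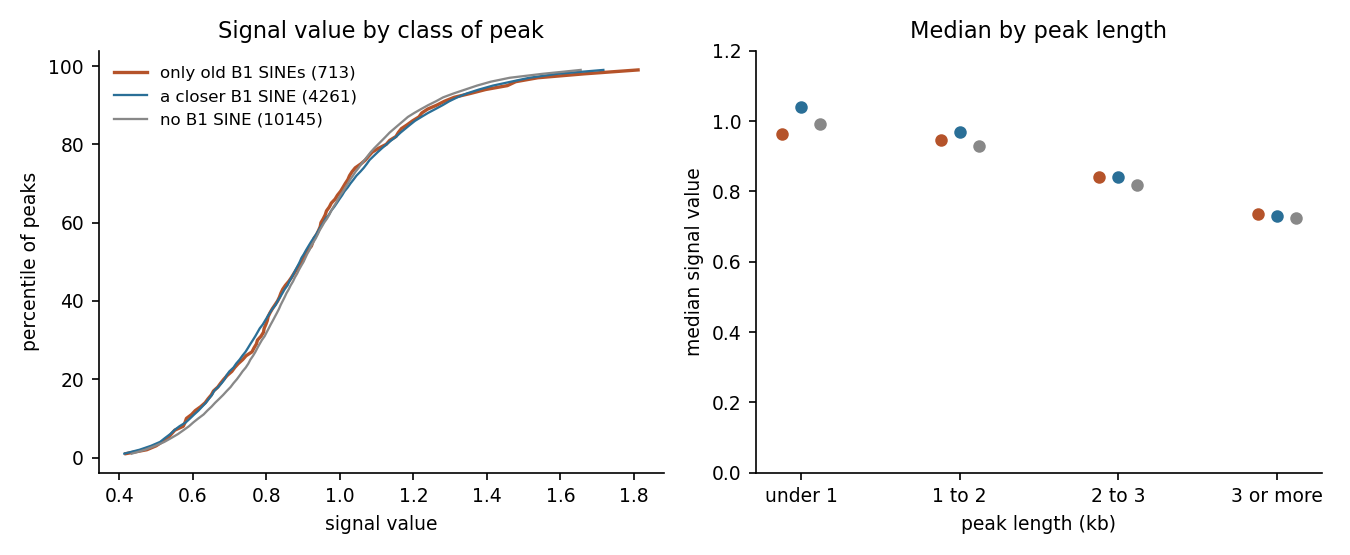
Left: percentiles 1 to 99 of the signal value (no unit stated) for members (713), peaks with a closer B1 SINE (4261) and peaks without one (10145); right: median signal value by peak length, for the same classes and colours. The 3 curves run together around medians of 0.897, 0.891 and 0.901, and the medians are lower in longer peaks in all 3 classes.

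Members of higher and lower divergence had medians with overlapping intervals. Members whose closest copy is under 75% had a median signal value of 0.893 (0.840 to 0.931, n = 244), and the 469 others 0.898 (0.866 to 0.926). Members with the run at bases 46 to 54 intact had 0.904 (0.866 to 0.932, n = 258), and members that span it changed 0.890 (0.843 to 0.926, n = 444). A closer copy outside the peak but within 1 kb was present for 243 members (34.1%). Their median was 0.923 (0.888 to 0.948), and that of the 470 members without one was 0.876 (0.845 to 0.904). For 200 members no closer copy lay within 5 kb, and their median was 0.875 (0.840 to 0.931). An alignment of at least 30 bp at 80% or more, too short to count as a copy, lay inside 190 members, whose median was 0.845 (0.810 to 0.899). The part of near or short closer stretches in the peaks was not tested.

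The members with the highest signal values were led by an intergenic peak nearest to Tmem14a, a membrane protein gene, at 2.13 (chr1:21209498-21210656, q = 0.00214). Its single copy is among the most diverged, at 70.7%. An intron of Trim24, a transcriptional cofactor of the TRIM family, held a peak of 2.07 (chr6:37871658-37873393, q = 0.0012). Phactr4, a regulator of actin and protein phosphatase 1, held an intronic peak of 2.06 with 2 old copies (chr4:132395703-132396645, q = 0.0282), and a closer copy lies 236 bp from its edge. Csrp1, which encodes a LIM protein of the actin cytoskeleton, has the nearest transcript start, at 35574 bp, to an intergenic peak of 1.98, which had the lowest q of these 10 members, 1.72e-05 (chr1:135683992-135684986).

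The next 6 of these members ran from 1.95 in Atcayos, an antisense transcript, through 1.92 at 45938 bp from the start of the acyl-CoA thioesterase gene Acot11, 1.83 at the pseudogene Rpl14-ps1, 1.81 at 103033 bp from the start of the pseudogene Rpl17-ps10 and 1.79 in Sugct to 1.77 in Ttc39a. Of them, the Acot11 peak missed a q of 0.05 (q = 0.0615). Closer copies lie 628, 661 and 670 bp from the edges of the Atcayos, Acot11 and Rpl14-ps1 peaks, and 1603 bp or more from the rest of the 6. Only 26 members (3.65%) had a signal value above 1.5, against 2.80% of all peaks, and 3 exceeded 2. None lay in Zfp266 itself, where the list has 5 peaks.

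Copies often lay at the edge of their peak. In members, 527 of the 775 copies (68.0%) lie wholly inside, and the middle of 127 lies outside the peak, whereas 87.4% of the closer copies in peaks lie wholly inside. With each peak cut into 5 equal parts, the central part of the members holds the middle of 16.1% of the copies (13.7 to 18.9%). For closer copies in their peaks this share is 19.4% (18.4 to 20.5%). Both shares are over all copies, so the copies with the middle outside, 127 in members and 370 of 5627 closer ones, lower them. From first to last, the 5 parts hold 150, 134, 125, 96 and 143 copies in members. For closer copies they hold 1039, 1051, 1092, 1049 and 1026. Peak edges lie at GATC sites, which the consensus lacks but would gain with a C at base 60. That base is kept by 25.9% of member copies and 80.9% of closer copies in peaks. Edges can thus fall on GATC sites inside diverged copies, and the part of such sites in these shares was not tested. Among the sequences above, the copies at Csrp1, Rpl17-ps10 and Sugct cross the edge of their peaks.

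By their midpoints, 363 members (50.9%, 47.2 to 54.6%) lie in introns, 315 (44.2%, 40.6 to 47.8%) are intergenic, 19 (2.66%) lie in promoters, which here reach from 1000 bp before a transcript start to 100 bp past it, and 16 (2.24%) in exons. Over all peaks, introns hold 45.7% and intergenic regions 49.9%. Members sat nearer to transcript starts than peaks without a B1 SINE, with a median distance of 16219 bp (13961 to 18894 bp) against 30212 bp, and peaks with a closer copy sat at 14118 bp. A start lay within 10 kb of 36.7% of members (33.3 to 40.3%), 40.0% of peaks with a closer copy and 24.7% of peaks without a B1 SINE. In intronic members 37.6% of the copies (33.0 to 42.5%) run in the direction of the gene, as do 37.5% of the closer copies in intronic peaks.

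Members were found on every chromosome but Y, where the list has 5 peaks in all. On autosomes the share of old copies in a peak ran from 1.39% on chromosome 13 to 2.59% on chromosome 17. On chromosome X it was 0.697% (27 of 3873).

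The promoter members with the highest signal values were Rpl14-ps1 at 1.83, Ppp6r2, a regulatory subunit of protein phosphatase 6, at 1.37 (q = 0.0564), Gm52329 at 1.36 (q = 0.000863), the noncoding RNA Platr5 at 1.21 (q = 0.0759) and Rab14, a GTPase of endosomal traffic, at 1.17 (q = 0.00296). Their closest copies were between 71.0 and 79.5% identical, and 2 of these 5 peaks miss a q of 0.05.

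The 4 members with 3 old copies lie in introns of Lgals3, the galectin-3 gene (signal value 0.91, q = 0.00434), Rab2a, a GTPase of traffic between endoplasmic reticulum and Golgi (0.70, q = 0.0443), and the sialyltransferase gene St3gal2 (0.57, q = 0.0952), and nearest to Noct, which encodes the circadian phosphatase nocturnin (0.90, q = 0.0196). Their signal values are at or below 0.91, and holding more copies did not go with a high signal in these 4. The longest member, 7906 bp in 10 fragments, lies in an intron of Eps8, an actin-capping substrate of the EGF receptor, with a signal value of 0.86 and a single copy of 71.3%.

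Several loci are shown in the study. Nearest to the olfactory receptor gene Olfr1393, the intergenic peak at chr11:49273326-49275588 is a member (signal value 0.78, q = 0.0549) with 1 copy of 79.2% at its edge. No member lies at the other loci looked for by name (Adgrb3, Fam50b and Pgk1).

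AP-1, a dimer of JUN and FOS proteins that keeps fibroblast enhancers open, reads TGACTCA. This word, or TGAGTCA on the other strand, stands in 323 members (45.3%, 41.7 to 49.0%), in 43.8% of peaks with a closer copy and in 44.4% of peaks without a B1 SINE. In windows of equal length beside the members, which may hold closer copies, it stands in 33.2% (30.6 to 36.0%). In the windows beside any peak that hold only old copies it stands in 36.6% (34.4 to 38.9%). By length the share in members went from 27.5% under 1000 bp to 39.0%, 46.6% and 71.0% at 3000 bp or more, and over all peaks from 26.2% to 69.4%. In the central 500 bp it was 14.7% in members (12.3 to 17.5%) and 15.7% in all peaks. The word count per kb was 0.322 in members, 0.284 with a closer copy and 0.351 without a B1 SINE. Members with the word had a lower median signal value than those without, 0.851 (0.823 to 0.888) against 0.926, and were longer, with medians of 2163 and 1616.5 bp. The order in signal value was the same in peaks with a closer copy (0.841 against 0.931) and in peaks without a B1 SINE (0.849 against 0.935).

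The AP-1 word was more frequent next to old copies in peaks, those of the members included, than next to old copies outside peaks. Within a copy or 200 bp to either side it stood beside 106 of the 775 member copies (13.7%, 11.4 to 16.3%), beside 8.20% of old copies outside peaks (8.01 to 8.40%), and beside 8.06% of those within 100 kb of a peak. For old copies that share a peak with a closer copy it was 12.6% (10.4 to 15.1%), which overlaps the members. For closer copies these shares were 9.37% in peaks and 6.37% outside. The copies themselves seldom hold it (19 of 775). A stretch with both is printed for the member with the highest signal value that has a single copy, the word next to it and no annotated exon in the stretch. The peak has its middle in an exon of Ech1, a gene of peroxisomal fatty acid oxidation, with a signal value of 1.46 and a copy of 76.9% at chr7:28826539-28826668 on the plus strand. Capitals mark the AP-1 word, and 58 bases separate it from the copy.
Ech1, chr7:28826474-28826668, plus strand: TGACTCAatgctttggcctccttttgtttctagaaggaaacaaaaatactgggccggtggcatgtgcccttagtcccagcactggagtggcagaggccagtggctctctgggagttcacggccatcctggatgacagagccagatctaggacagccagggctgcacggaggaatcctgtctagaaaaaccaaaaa

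KLF proteins bind GC-rich boxes, and their words were CCACACCC, CCACGCCC, CCCCACCC and CCCCGCCC on either strand. At least 1 of them stood in 297 members (41.7%, 38.1 to 45.3%), in 54.6% of peaks with a closer copy (53.1 to 56.1%) and in 36.6% of peaks without a B1 SINE. In windows beside the members the share was 47.3% (44.4 to 50.1%), and in windows that hold only old copies it was 40.7% (38.4 to 43.0%), level with the members. A KLF word lies within 18.5% of the closer copies in peaks and within 2.71% of the member copies (1.78 to 4.11%). The copy printed above as closest shows one near its 5′ end, GGGCGTGG, which is CCACGCCC read on the other strand. The SOX word CCATTGT stood in 169 members (23.7%, 20.7 to 27.0%), 24.8% of the windows beside them and 25.4% of all peaks.

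**Figure D5:**
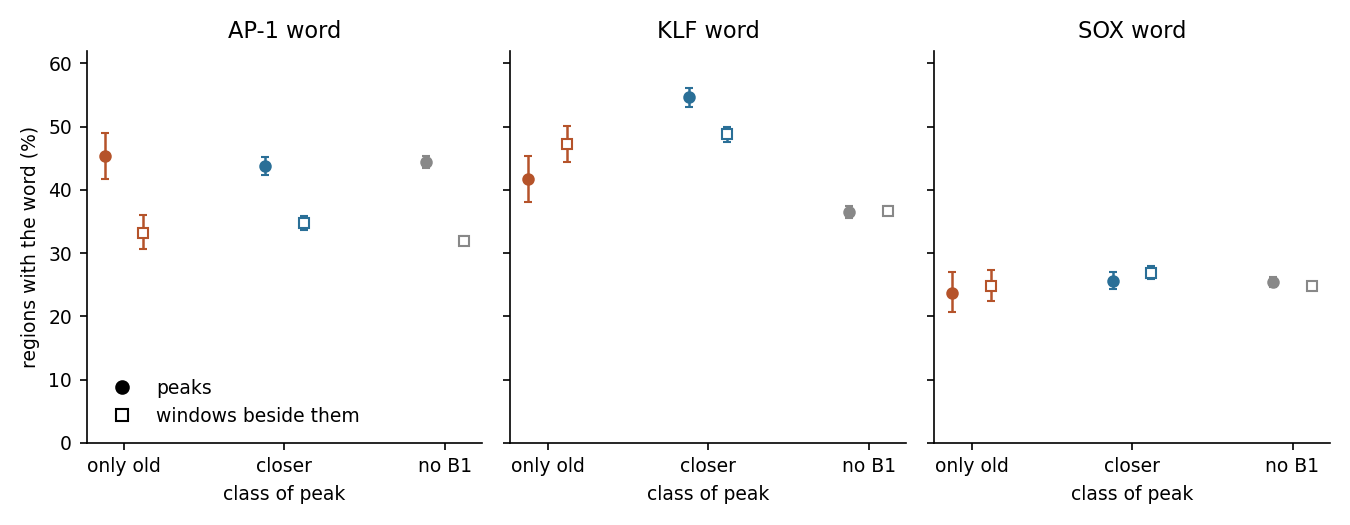
Share of regions (%) with an AP-1, KLF or SOX word, in peaks (filled points) and in windows of equal length beside them (open squares), by class of peak, with Wilson 95% intervals. In members the AP-1 word stands at 45.3% against 33.2% beside them, the KLF words at 41.7% against 47.3%, and the SOX word at 23.7% against 24.8%; these windows may hold closer copies, and in windows with only old copies, not plotted, the AP-1 word stands at 36.6% and the KLF words at 40.7%.

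A member lay in or within 10 kb of 566 of 21000 protein-coding genes (2.70%). A peak of any class lay at 5718 of these genes (27.2%), and 9.90% of those with a peak had a member. Of the 22 collagen and matrix genes, 13 (59.1%) had a peak of any class and 3 a member (13.6%, 4.75 to 33.3%). These 3 are 23.1% of the genes of the list with a peak, so the list is rich in peaks of any class. Its median gene length of 41696 bp exceeds the 16724 bp of all protein-coding genes. The 3 are Col4a2, a basement membrane collagen (signal value 0.61, q = 0.0785), Col5a2, a fibrillar collagen (0.84, q = 0.0498), and Ltbp1, which binds latent TGF-beta in the matrix (1.11, q = 0.0873). Among 24 TGF-beta pathway genes the BMP receptor gene Bmpr2 had one (0.78, q = 0.075), among 19 TRIM28 and heterochromatin genes the DNA methyltransferase gene Dnmt3a (0.73, q = 0.0655), and among 23 pluripotency genes Sall4 (0.91, q = 0.0727). In these 3 lists 13, 9 and 7 genes in turn had a peak of any class. The Sall4 member, of 274 bp and the shortest of the 713, lies within 10 kb of the gene and not in it, whereas the others named here lie in their genes. By its midpoint the Sall4 member counts as a promoter peak, and the transcript of that promoter is not named here. Its copy (chr2:168742627-168742751) runs past the end of the peak at base 168742645. None of the 14 AP-1 family genes and none of the 22 fibroblast transcription factor genes had a member, with upper Wilson limits of 21.5% and 14.9%. A peak of any class lay at 7 and 13 of them. Of these 6 loci only that of Col5a2 met a q of 0.05, and its signal value was under 1. Pakap and Sugct had 3 members each, of 18 and 7 peaks at these genes.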

How the data were processed

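DamID-seq of 5 Dam-ZFP266 and 5 Dam only samples was analysed from the 1 peak list deposited for the series. The authors removed adapters with cutadapt, aligned reads to GRCm38.p6 with BWA (FastQC is also listed in the submitters' processing notes, without versions), counted reads per DpnII fragment and called peaks over all samples with Daim. The deposited list gives each peak a score, capped at 1000 and derived from q, a signal value (also treated as a score, of unstated scale) and a −log10 q-value, and its −log10 p-value was not used. All q were under 0.1, so the limits that the methods give as an example (FDR under 0.05, log2 fold change above 1) were not applied to the whole list, and the subset with q under 0.05 and signal value above 1 is given beside it. Depth per sample is unknown, so precision is limited by unknown read counts, and no replicate test could be made.

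The B1 consensus was pieced together from 2 genomic copies, compared by eye with the picture of it in the study, and aligned to chromosomes 1 to 19, X and Y with blastn 2.17.0 (word size 11, e-value limit 10, no masking). Words were exact matches on both strands. Curated RefSeq transcripts (45756) gave locations and distances. Python 3.11.15, pandas 2.3.3, scipy 1.17.1 and matplotlib 3.10.9 were used, and the copy search and overlaps were tested on simulated sequence. The members and gene lists were chosen with earlier results of these data known. Named loci are the 10 members with the highest signal value, the 5 highest in promoters, those with most copies, the longest, those next to the 80% limit, loci the study shows and genes of the lists. A peak next to the 80% limit and the sequence of a copy that meet the rules are not reported here.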

Additional observations from a re-analysis of the deposited data

How the results depend on the processing

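No paired analysis was possible because the samples enter 1 pooled list with no value per sample, so no sample could be left out either. Of 58 values recomputed under an alternative, 41 stayed within the interval of the reported value (counts within 1.5 times) and 17 did not. A reversal could be scored only for the ratio for bases 46 to 54, and 0 of its values reversed. The number of members was 244 with a limit of 75% and 1331 with 85%, 469 when copies had to reach 75%, 179 with q under 0.05 and signal value above 1, 19 with q under 0.001, and 470 without members that have a closer copy within 1 kb. These follow from the construction of the alternatives. The share of old copies in a peak was 1.83% under 75%, 1.64% when at least 50% of the copy had to lie inside, 0.440% with the stricter peaks and 0.995% for copies with no other B1 SINE within 5 kb. The share of members with the AP-1 word was 36.9% with the stricter peaks and 14.7% in the central 500 bp. With bases 46 to 54, the ratio was 1.84 with the stricter peaks and 1.42 for copies far from others. With word size 7, an alternative that was added, as were all those for these bases, after the data had been seen, 29.2% of member copies kept these bases, 948 peaks were members, and the ratio was 1.52. Promoters of 2000 bp held 5.75% of members, and with GENCODE transcripts 39.3% were intergenic. The peak list alone sets what could be seen: fragments limit resolution, peaks are longer than a copy, and counting intervals leave out biological spread.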
